A study of Mus musculus with 19 samples.

Results

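The 10 genes of the integrated stress response were followed across 19 microarrays of fat cells given 1 of 4 fatty acids: Slc7a11, Trib3, Ppp1r15a, Atf4, Atf3, Ddit3, Chac1, Asns, Sesn2 and Psat1. They were taken by gene symbol from the array's annotation, and 9 of the 10 were measured by a probe set of their own among the 18820 genes tested. The only probe set that carries Ddit3, the gene of the factor CHOP, is shared with a second gene, so no value is given for it. The genes were chosen by a pathway name with earlier results of these data known. Among those results was the lower expression of Slc7a11 and Ppp1r15a in oleic acid than in control. Values of the chosen genes in oleic acid and stearic acid against control are therefore a description, and so are those in every other comparison that contains the oleic or stearic acid arrays. They are given without p-values. The number of genes past the threshold is still printed for these comparisons beside the share over all genes, but nothing is read from it. Which earlier result led to Trib3 is not known, so its differences are given without p-values throughout. The gene lists set beside these genes were also written with earlier results of these data known. The p-values of list genes are therefore not independent tests.

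The cells were differentiated 3T3-L1, a mouse fibroblast line that forms adipocytes in culture. Serum was withdrawn on day 7 of differentiation, and on day 8 treatment began, lasting 48 h at a dose of 250 µM. The saturated acids were palmitic acid (PA, 16 carbons, 4 arrays) and stearic acid (SA, 18 carbons, 4 arrays). The acids with 1 double bond were palmitoleic acid (PMA, titled PMO by the submitters, 16 carbons, 4 arrays) and oleic acid (OA, 18 carbons, 3 arrays). The 4 control arrays come from cultures with the ethanol vehicle and 2% albumin alone. All groups are thus 1 cell line, 1 dose and 1 time. The labels call the arrays biological replicates, and p-values measure the spread between these arrays. Each array measured 100 ng of RNA from a whole culture, so fewer cells of a type and less RNA per cell cannot be told apart.

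The integrated stress response starts with kinases that phosphorylate the initiation factor eIF2 when amino acids are short, the endoplasmic reticulum is loaded with unfolded protein, heme is low or viral RNA is present. Most translation then slows while the factor ATF4 is translated more. ATF4, with C/EBP family partners, binds C/EBP-ATF composite elements and turns on genes for amino acid uptake and synthesis, for the factors ATF3 and CHOP, and for feedback proteins such as GADD34 and TRIB3. TRIB3 has been described as an inhibitor of insulin signalling through AKT, and Slc7a11 encodes the cystine importer that feeds glutathione synthesis. Much of ATF4's control is at translation, which an mRNA array does not measure.

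Because ATF4 acts through a short composite element, the promoters of 5 genes are shown. They are the 4 genes with a match to its core in the 250 bases before the listed transcript start, and Trib3, whose arrays were lower in the 18-carbon than in the 16-carbon acids, a difference seen before it was described and not tested, and whose window holds no match. The sequences are those of RefSeq on GRCm38.p6, given 5′ to 3′ on the strand of the gene, with the core in capitals. The window of Slc7a11 is chr3:50443614-50443863 on the minus strand, which lies inside the span annotated for the gene (chr3:50364936-50499087) and so precedes an internal start. Chac1 has chr2:119350992-119351241 (plus), Asns chr6:7693210-7693459 (minus), Atf3 chr1:191183334-191183583 (minus) and Trib3 chr2:152344061-152344310 (minus).
Slc7a11: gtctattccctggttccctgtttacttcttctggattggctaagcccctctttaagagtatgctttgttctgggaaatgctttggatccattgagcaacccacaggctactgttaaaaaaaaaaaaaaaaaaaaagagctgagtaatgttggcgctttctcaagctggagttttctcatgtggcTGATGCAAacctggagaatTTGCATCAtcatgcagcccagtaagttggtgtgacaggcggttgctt
Chac1: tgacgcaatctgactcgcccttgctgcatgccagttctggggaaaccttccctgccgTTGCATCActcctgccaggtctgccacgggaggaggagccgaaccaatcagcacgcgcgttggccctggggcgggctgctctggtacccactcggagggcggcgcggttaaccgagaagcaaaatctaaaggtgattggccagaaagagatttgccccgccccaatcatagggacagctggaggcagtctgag
Asns: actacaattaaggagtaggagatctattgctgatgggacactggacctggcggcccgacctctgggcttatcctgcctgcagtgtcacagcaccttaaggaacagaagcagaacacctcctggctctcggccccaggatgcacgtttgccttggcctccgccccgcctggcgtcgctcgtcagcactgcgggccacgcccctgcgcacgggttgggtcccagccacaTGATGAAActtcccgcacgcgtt
Atf3: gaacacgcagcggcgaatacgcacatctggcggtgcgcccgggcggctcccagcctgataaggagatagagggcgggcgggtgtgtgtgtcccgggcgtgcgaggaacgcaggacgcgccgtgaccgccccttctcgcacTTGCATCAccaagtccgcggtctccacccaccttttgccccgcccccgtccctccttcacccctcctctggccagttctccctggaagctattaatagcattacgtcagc
Trib3: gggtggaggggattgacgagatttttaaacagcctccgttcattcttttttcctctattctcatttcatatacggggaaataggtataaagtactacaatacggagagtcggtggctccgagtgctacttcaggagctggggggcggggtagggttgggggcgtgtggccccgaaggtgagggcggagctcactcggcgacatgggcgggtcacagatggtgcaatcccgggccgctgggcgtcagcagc

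The core searched was TGATGNAA on both strands, and 4 of the 10 genes (Slc7a11, Chac1, Asns and Atf3) held it, against 3.45% of 32851 promoter windows of the same length. Slc7a11 held it in both orientations, starting 66 and 47 bases before the start. Chac1 held it 193 bases before the start, Atf3 110 and Asns 23. The antioxidant element core TGACNNNGC was found in Asns and Sesn2, against 10.2% of all windows. The shorter element CCACG of the endoplasmic reticulum stress response was found in 5 genes (Asns, Atf4, Chac1, Psat1 and Sesn2), against 28.3%. No match of these 3 motifs overlapped another. Trib3, Ppp1r15a and Ddit3 held none of the 3 in this window, which says only that these letters are not in it. A match is a description of the sequence and not evidence of binding.

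**Figure D1:**
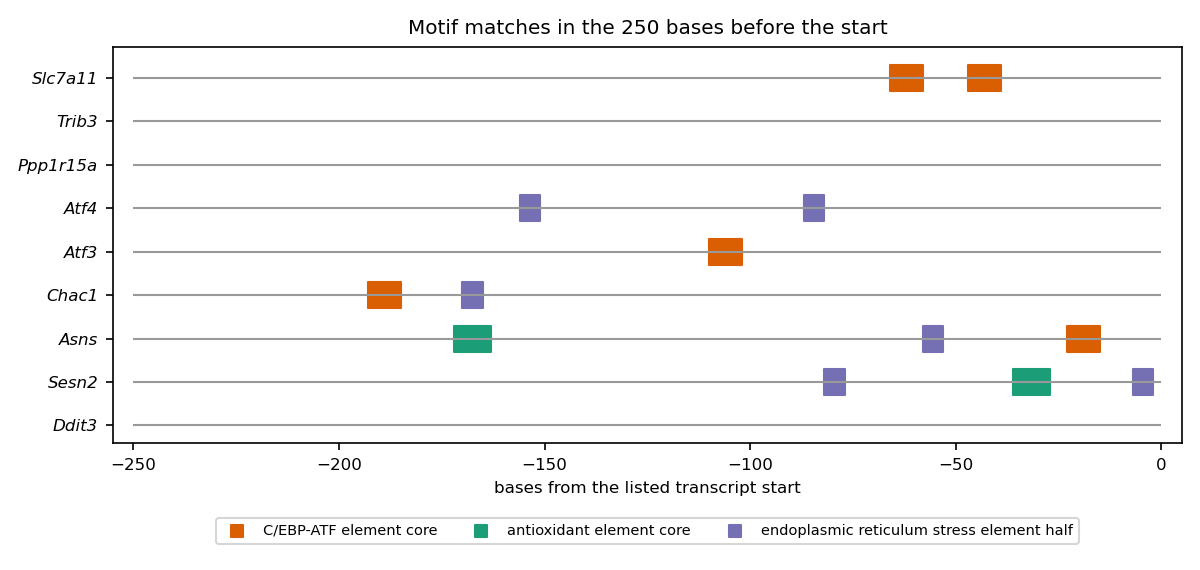
Matches of 3 motifs in the 250 bases before the listed transcript start of 9 of the 10 genes (Psat1, with 2 listed windows, is left out); the x axis is the distance from the start in bases and each box is 1 match. Slc7a11 shows its pair of C/EBP-ATF cores at 66 and 47 bases before the start, and Trib3, Ppp1r15a and Ddit3 show no box.

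Values below are log2 RMA expression, a background-corrected and between-array normalised signal, and differences are on that log2 scale with the standard error of the model. A level of 1 gene is not compared with that of another, since probe sets differ in brightness. In each comparison the gene passed when the limma p-value, adjusted by the Benjamini-Hochberg method over all 18820 genes, was under 0.05. The number of arrays limits the precision: the 95% interval of a difference of Slc7a11 between groups of 4 reached from -0.21 to 0.12 for PA against control. Array medians lay between 5.23 and 5.43. On the first principal component (23.5% of the variance) PA replicates 2 and 4 stood apart from the other arrays, and on the second (12.0%) PMA replicates 1 and 4 did. The 9 measured adipocyte markers averaged 11.08 to 11.20 per array, and the 6 measured preadipocyte and fibroblast markers 10.34 to 10.61. The 6 macrophage markers averaged 4.72 to 4.97 and the 4 endothelial markers 4.37 to 4.65.

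The genes that varied most between the acids were Slc7a11 and Trib3, and they varied in different ways. Slc7a11 was lowest in OA and highest in SA, acids of the same length that differ by the double bond. Trib3 was lower in both 18-carbon acids than in both 16-carbon acids. Ppp1r15a was lower in all 4 acids than in control, whereas Asns and Psat1 stayed within a narrow range.

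**Figure D2:**
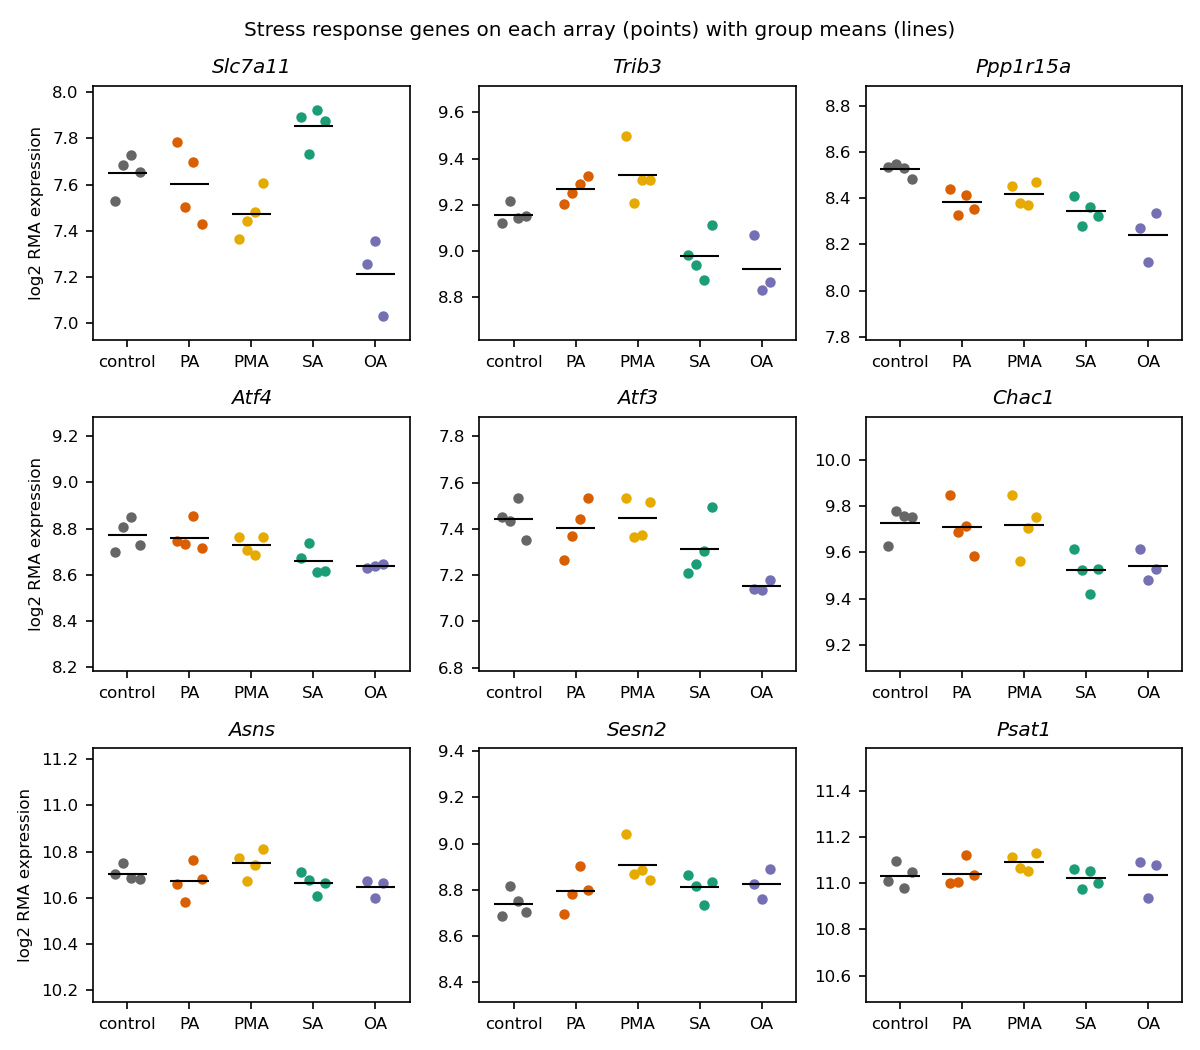
Log2 RMA expression (y axis) of the 9 measured genes on each array, by group (x axis); points are arrays and lines are group means, and every panel spans the same log2 range. The 3 OA arrays of Slc7a11 sit at 7.03 to 7.35, the 18-carbon arrays of Trib3 at 8.83 to 9.11 and the 16-carbon arrays at 9.20 to 9.50.

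Atf4 and Atf3 encode the transcription factors of the response. Atf4 (probe set 10425364, gene at chr15:80255184-80257545 on GRCm38.p6) averaged 8.77 ± 0.07 (SD, n = 4) in control, 8.76 ± 0.06 in PA, 8.73 ± 0.04 in PMA, 8.66 ± 0.06 in SA and 8.64 ± 0.01 (n = 3) in OA. The group means spanned 0.13, and its OA arrays, at 8.63, 8.64 and 8.65, lay below all 4 control arrays, which reached from 8.70 to 8.85. Atf3, a stress-induced repressor and activator of the same basic leucine zipper family (probe set 10361091, chr1:191170296-191183333), read 7.45, 7.43, 7.53 and 7.35 in control. It read 7.14, 7.13 and 7.18 in OA, below every array of the other groups. In PA its arrays ran from 7.27 to 7.53, in PMA from 7.36 to 7.53 and in SA from 7.21 to 7.49, each overlapping control. The difference of Atf3 between OA and control was -0.29 ± 0.07. It was not called there, but it was in 8 of 29 alternative fits, with differences of -0.31 to -0.29. Calls over all genes ran from 22 to 1188 in the alternative fits of OA against control, beside 162 in the main fit. Results of this comparison were known when the genes were chosen, so nothing is read from the calls of Atf3.

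Ppp1r15a and Trib3 encode feedback proteins. Ppp1r15a encodes GADD34, the phosphatase subunit that removes the phosphate from eIF2 (probe set 10563338, chr7:45522917-45526268). It read 8.54, 8.55, 8.53 and 8.48 in control. The PA arrays read 8.44, 8.33, 8.42 and 8.36, the PMA arrays 8.45, 8.38, 8.37 and 8.47, the SA arrays 8.41, 8.28, 8.36 and 8.32, and the OA arrays 8.27, 8.12 and 8.33. All 15 arrays with a fatty acid, at 8.12 to 8.47, lay below all 4 control arrays, at 8.48 to 8.55. The mean of the 4 acids differed from control by -0.18 ± 0.04, a comparison added after the values were seen and given without a test. By acid, the difference was -0.14 ± 0.05 in PA (adjusted p = 0.244, limma) and -0.11 ± 0.05 in PMA (adjusted p = 0.315, limma), neither past the threshold. It was -0.18 ± 0.05 in SA and -0.28 ± 0.06 in OA.

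Trib3 encodes a pseudokinase that binds ATF4 and AKT (probe set 10488608, chr2:152337425-152344060). Control arrays read 9.12, 9.22, 9.14 and 9.15. The 16-carbon acids overlapped these and reached higher, with 9.20, 9.25, 9.29 and 9.33 in PA and 9.50, 9.21, 9.31 and 9.31 in PMA. The 18-carbon acids were below them, with 8.98, 8.94, 8.88 and 9.11 in SA and 9.07, 8.83 and 8.87 in OA. The order of the means was PMA (9.33), PA (9.27), control (9.16), SA (8.98) and OA (8.92). Of neighbours in that order, control and SA did not overlap, and the other neighbours did. Against control Trib3 differed by 0.11 ± 0.07 in PA, 0.17 ± 0.07 in PMA, -0.18 ± 0.07 in SA and -0.24 ± 0.07 in OA.

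Slc7a11 encodes xCT, the light chain of the cystine and glutamate exchanger (probe set 10498024). Control arrays read 7.53, 7.69, 7.73 and 7.65. The SA arrays read 7.89, 7.73, 7.92 and 7.87, all above control, although the lowest of them and the highest control array both round to 7.73. The PA arrays read 7.79, 7.50, 7.70 and 7.43 and the PMA arrays 7.36, 7.44, 7.48 and 7.61, both overlapping control. The OA arrays read 7.26, 7.35 and 7.03, below every other array of the study. The order of the means was SA (7.86), control (7.65), PA (7.60), PMA (7.47) and OA (7.21). SA and control did not overlap, nor did PMA and OA, while control, PA and PMA overlapped as neighbours. Against control the differences were -0.05 ± 0.08 in PA (adjusted p = 0.795, limma), -0.18 ± 0.08 in PMA (adjusted p = 0.289, limma), 0.21 ± 0.08 in SA and -0.44 ± 0.09 in OA, where the level was 0.739 times that of control.

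Chac1, Asns, Psat1 and Sesn2 are targets with separate roles. Chac1 encodes an enzyme that breaks down glutathione (probe set 10474972, chr2:119351242-119354326). Its control arrays read 9.63, 9.78, 9.76 and 9.75, and its PA and PMA arrays ran from 9.59 to 9.85 and from 9.56 to 9.85. In SA it read 9.62, 9.52, 9.42 and 9.53 and in OA 9.62, 9.48 and 9.53, all below the lowest control array. The difference from control was -0.21 ± 0.07 in SA and -0.19 ± 0.07 in OA. Sesn2 encodes sestrin 2, a leucine-binding inhibitor of mTORC1 (probe set 10516932, chr4:132492804-132510456). It read 8.69, 8.82, 8.75 and 8.70 in control and 9.04, 8.87, 8.88 and 8.84 in PMA, where all 4 arrays lay above control. That difference was 0.17 ± 0.06 and did not pass (adjusted p = 0.168, limma).

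Asns, encoding asparagine synthetase (probe set 10543067, chr6:7675165-7693209), ranged from 10.58 to 10.81 over the 19 arrays. Psat1, an enzyme of serine synthesis (probe set 10466410, chr19:15905123-15925059), ranged from 10.94 to 11.13. Their group means spanned 0.10 and 0.07. Neither gene passed in any comparison, and their largest differences from control were -0.06 ± 0.05 (Asns, OA) and 0.06 ± 0.05 (Psat1, PMA).

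Counted over the 9 genes, 0 passed in PA against control (limma), where 0% of all genes were called, and 1 of the 9 had an unadjusted p under 0.05, as did 15.4% of all genes. In PMA 0 of 9 passed, against 0.266% of all genes, with 3 at an unadjusted p under 0.05 and 16.0% of all genes. In SA 0 of 9 passed, against 0.165%, with 5 at an unadjusted p under 0.05 and 8.53% of all genes. In OA 2 of 9 passed, both lower (Slc7a11 and Ppp1r15a), against 0.861%. At least 1 of these calls ended when any of control replicates 1, 3 and 4 or OA replicates 1, 2 and 3 was left out, with Slc7a11 then between -0.46 and -0.34 and Ppp1r15a between -0.30 and -0.22 where lost. Nothing is read from the SA and OA counts, since results of both comparisons were known when the genes were chosen. The median difference of the 9 genes was -0.02 in PA, 0.00 in PMA, -0.11 in SA and -0.19 in OA, beside medians over all genes of 0.03, 0.06, 0.02 and 0.02. Array averages of some marker lists also differed from control. The adipocyte markers averaged 11.13 to 11.19 in SA and 11.14 to 11.20 in OA, above control at 11.09 to 11.10. The fibroblast markers averaged 10.506 to 10.611 in PMA, 10.422 to 10.471 in SA and 10.435 to 10.541 in OA, all above control at 10.362 to 10.416. In PA they overlapped control. Of the fibroblast markers Col1a1 rose in PMA, by 0.26 ± 0.05 (adjusted p = 0.0463, limma; lost in 18 of 29 alternative fits, at 0.22 to 0.27). The macrophage markers averaged 4.72 to 4.81 in SA, below control at 4.82 to 4.91. Of these 6 markers only 3 were lower in SA than in control, with a median difference of -0.02 and 0 called (limma). Their averages lay below the array medians of 5.23 to 5.43. The part of the marker lists in these results was not tested.

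**Figure D3:**
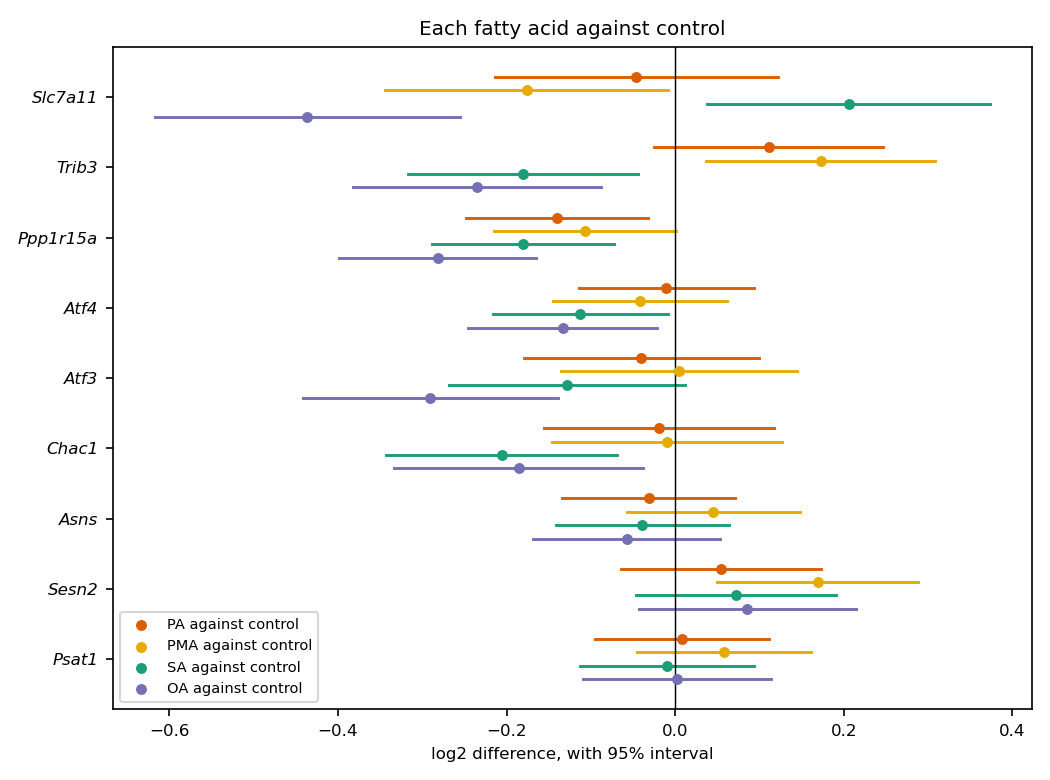
Log2 difference from control (x axis) of the 9 measured genes (y axis) for the 4 acids; points are estimates and bars 95% intervals from the linear model. Slc7a11 lies at 0.21 in SA and -0.44 in OA, and the 4 Ppp1r15a points lie between -0.28 and -0.11.

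Of the acids, 4 pairs were compared in which a single feature changes, the double bond or the chain length, all at 250 µM and 48 h. Adding the double bond at 16 carbons (PMA against PA) gave 0 of 9 genes past the threshold in limma and 0 at an unadjusted p under 0.05, against 0.962% of all genes called and 17.7% at an unadjusted p under 0.05. Slc7a11 differed by -0.13 ± 0.08 (adjusted p = 0.425, limma), with a 95% interval from -0.30 to 0.04. Trib3 differed by 0.06 ± 0.07, with an interval from -0.07 to 0.20.

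At 18 carbons the double bond (OA against SA) went with a lower Slc7a11. Its 3 OA arrays, at 7.03 to 7.35, lay below the 4 SA arrays, at 7.73 to 7.92. The difference was -0.64 ± 0.09, with an interval from -0.82 to -0.46, and the OA level was 0.641 times the SA level. The count past the threshold was 1 of 9 (Slc7a11), and 0 of 9 without OA replicate 3, where the difference was -0.55. Over all genes 0.0319% were called, and nothing is read from the count, because it reuses the OA arrays. Trib3 differed by -0.05 ± 0.07 (interval -0.20 to 0.09) and Chac1 by 0.02 ± 0.07 (interval -0.13 to 0.17).

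Over both lengths, the monounsaturated acids differed from the saturated acids by -0.39 ± 0.06 for Slc7a11, although PA and PMA arrays overlapped. The count past the threshold was 1 of 9 (Slc7a11), beside 0.553% of all genes, again with nothing read from it. Trib3 differed by 0.00 ± 0.05, with an interval from -0.10 to 0.10. Whether the double bond differed more at 18 than at 16 carbons was asked by an interaction term, which was -0.51 ± 0.12 for Slc7a11. In limma the count was 0 of 9, beside 0.00531% of all genes. At an unadjusted p under 0.05 it was 2 of 9, beside 5.24% of all genes. As this term contains the OA arrays, nothing is read from these counts either.

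**Figure D4:**
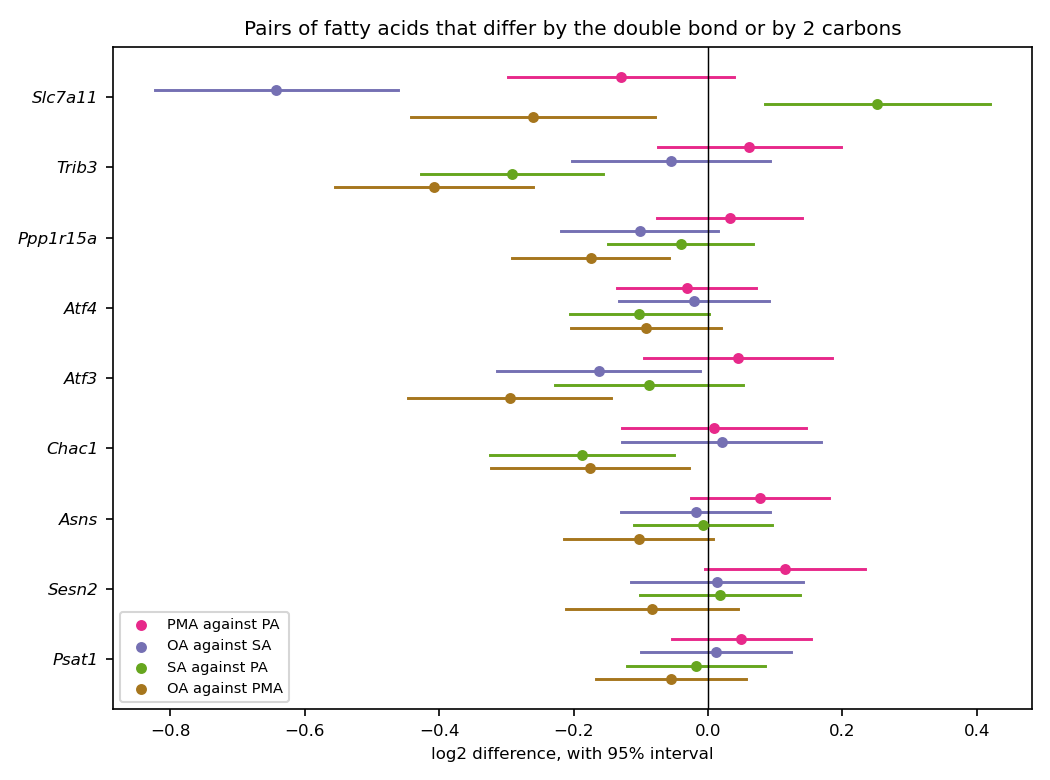
Log2 difference (x axis) of the 9 measured genes (y axis) in the 4 pairs of acids; points are estimates and bars 95% intervals from the linear model. Slc7a11 stands at -0.64 in OA against SA, and Trib3 at -0.29 and -0.41 in the pairs that differ in length but at 0.06 and -0.05 in the pairs that differ in the double bond.

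The 2 pairs that differ by chain length separated Trib3. Among saturated acids, the SA arrays of Trib3 (8.88 to 9.11) lay below the PA arrays (9.20 to 9.33), a difference of -0.29 ± 0.07. In SA against PA 0 of 9 genes passed in limma, against 0.143% of all genes called, and 3 of 9 had an unadjusted p under 0.05, against 15.8% of all genes. Nothing is read from these counts, because they reuse the SA arrays. Slc7a11 was higher in SA than in PA by 0.25 ± 0.08, with overlapping arrays. With 1 array left out, Trib3 was past the threshold in 2 of 19 fits, without PA replicate 1 (-0.31) or SA replicate 4 (-0.34). Slc7a11 was past it in 1 of 19, without PA replicate 1 (0.31). Over all genes the calls in these 19 fits ran from 9 to 499, beside 27 in the main fit. Nothing is read from these calls either. Chac1 differed by -0.19 ± 0.07.

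Among monounsaturated acids, the OA arrays of Trib3 (8.83 to 9.07) lay below the PMA arrays (9.21 to 9.50), a difference of -0.41 ± 0.07 with an interval from -0.55 to -0.26. The OA level was 0.754 times the PMA level. The count past the threshold was 1 of 9 (Trib3), beside 0.0531% of all genes, and nothing is read from it. The call ended when PMA replicate 1 (-0.35), 3 (-0.42) or 4 (-0.42) or OA replicate 2 (-0.36) or 3 (-0.38) was left out, when the fit used only these 2 groups (-0.41) and without PMA replicates 1 and 4 together (-0.34). All 9 genes had a negative difference in this pair, with a median of -0.17 beside -0.04 over all genes. The share of negative differences over all genes was not counted, and nothing is read from the signs. Slc7a11 differed by -0.26 ± 0.09, Atf3 by -0.30 ± 0.07 and Ppp1r15a by -0.17 ± 0.06.

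Set together after the values were seen, and without a test, the 18-carbon acids differed from the 16-carbon acids by -0.35 ± 0.05 for Trib3. The 7 arrays of the 18-carbon acids, at 8.83 to 9.11, did not overlap the 8 arrays of the 16-carbon acids, at 9.20 to 9.50. The same difference was -0.19 ± 0.05 for Atf3 and -0.18 ± 0.05 for Chac1, whose arrays overlapped, and 0.00 ± 0.06 for Slc7a11. The median over all genes was -0.03.

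Over the 19 arrays Trib3 varied with Chac1 (Pearson r = 0.75) and Atf3 (r = 0.74), Atf4 with Chac1 (r = 0.72), and Asns with Psat1 (r = 0.70). With the group means subtracted these were 0.49, 0.54, 0.42 and 0.66. The highest r with group means subtracted was that of Ppp1r15a with Psat1, at 0.71, beside 0.39 without the subtraction. Without it, Slc7a11 varied with none of the other 8 genes to the degree of the first 4 pairs: its r ran from -0.33 (Sesn2) to 0.32 (Ppp1r15a). These values describe 19 arrays that share groups and a joint normalisation. By the same measure over all genes, the 5 most like Slc7a11 were Cyp7b1 (r = 0.81), Ptgs2 (0.80), Ereg (0.79), Car6 (0.75) and Osmr (0.75). Cyp7b1 encodes an oxysterol hydroxylase, Ptgs2 the inducible cyclooxygenase, Ereg the growth factor epiregulin, Car6 a secreted carbonic anhydrase and Osmr the oncostatin M receptor. Without the 2 arrays farthest from the Slc7a11 median, these were 0.82, 0.63, 0.72, 0.59 and 0.66. With group means subtracted the 5 most like it were others: Exoc6, Parp8, Pot1b, Thoc2l and Kbtbd7, with r between 0.78 and 0.79.

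The 5 genes most like Trib3 were Chchd10 (r = 0.92), Slc6a9 (0.88), Tap1 (0.88), Vars (0.87) and Pim1 (0.87). Chchd10 encodes a small mitochondrial protein, Slc6a9 a glycine transporter, Tap1 a subunit of the peptide transporter of antigen presentation, Vars valyl-tRNA synthetase and Pim1 a serine and threonine kinase. Chchd10 averaged 7.42 in control, 7.57 in PA, 7.77 in PMA, 7.05 in SA and 7.19 in OA. Slc6a9, which is also in the list of amino acid transporters used here, averaged 9.09, 9.19, 9.27, 9.10 and 8.96 in the same order. Without the 2 arrays farthest from the Trib3 median, the 5 values of r lay between 0.80 and 0.91.

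Of the wider pathway, 57 further genes were listed and 52 measured: kinases, phosphatase and exchange subunits that act on eIF2, partner factors, enzymes of amino acid and one-carbon synthesis, amino acid transporters, aminoacyl-tRNA synthetases and other targets. They were listed with earlier results of these data known, so their p-values are a description. In PA 0 of 52 passed (limma), with 4 at an unadjusted p under 0.05, beside 15.4% of all genes. In PMA 1 rose and 51 did not pass, beside 0.266% of all genes called. At an unadjusted p under 0.05 there were 13 of 52, beside 16.0% of all genes. The gene that rose was Slc7a5, the light chain of the large neutral amino acid transporter, at 0.25 ± 0.05 (adjusted p = 0.0444, limma). Its PMA arrays read 10.85, 10.67, 10.72 and 10.73 and its control arrays 10.51, 10.50, 10.52 and 10.43, with no overlap. The call was lost in 17 of 29 alternative fits, where the difference lay between 0.20 and 0.26. Absence of overlap with control was not particular to PMA, as all PA, SA and OA arrays of Slc7a5 also lay above control. There the differences were 0.10 ± 0.05, 0.12 ± 0.05 and 0.11 ± 0.05, and none was called (limma). In SA 1 rose, beside 0.165% of all genes called, and 6 of 52 had an unadjusted p under 0.05, beside 8.53% of all genes. The gene that rose was Ddit4, which encodes the mTORC1 inhibitor REDD1, at 0.40 ± 0.07 (adjusted p = 0.0267, limma). It read 9.81, 9.84, 9.88 and 9.89 in SA and 9.41, 9.47, 9.43 and 9.51 in control, again without overlap. The call was lost when any single control or SA array was left out, with a difference between 0.39 and 0.42. These were 8 of 29 alternative fits and covered every array of this comparison. In OA 0 of 52 passed (limma), with 5 at an unadjusted p under 0.05, beside 11.6% of all genes, and Ddit4 was higher by 0.30 ± 0.08 (adjusted p = 0.0691, limma). Ddit4 was also higher in PMA, by 0.27 ± 0.07 (adjusted p = 0.0941, limma). Its OA arrays (9.58 to 9.93) and PMA arrays (9.62 to 9.83) lay above all control arrays, while its PA arrays overlapped control.

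The median difference of the 52 genes from control was 0.00 in PA, 0.07 in PMA, 0.01 in SA and -0.01 in OA, beside 0.03, 0.06, 0.02 and 0.02 over all genes. The medians of the 9 chosen genes in SA and OA, -0.11 and -0.19, were lower in value, and that difference was not tested. Results of both comparisons were known when the 9 genes were chosen, so nothing is read from it. The 10 measured genes that act on eIF2, among them its kinases Eif2ak1 to Eif2ak4, had medians from -0.02 (PA) to 0.07 (PMA), and 0 of 10 passed in any of the 10 comparisons (limma). The most at an unadjusted p under 0.05 were 3, in PMA against PA, where 17.7% of all genes were. The 3 measured partner factors, Cebpb, Cebpg and Nupr1, had 0 called and 0 at an unadjusted p under 0.05 in every comparison. Slc3a2, the heavy chain that pairs with the products of Slc7a11 and Slc7a5, ranged from 11.57 to 11.81 over the arrays and did not pass in any comparison.

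Between the acids, 1 of 52 genes passed in OA against PMA (limma): Slc6a9 was lower in OA, with a difference of -0.31 ± 0.06 (adjusted p = 0.0488). Its OA arrays read 9.07, 8.90 and 8.89 and its PMA arrays 9.37, 9.14, 9.30 and 9.26, without overlap. The call was lost in 19 of 29 alternative fits, where the difference lay between -0.31 and -0.26. In this pair 0.0531% of all genes were called, and 14 of 52 had an unadjusted p under 0.05, beside 8.61% of all genes. A negative difference was found in 42 of 52, with a median of -0.08 beside -0.04 over all genes. The share of negative differences over all genes was not counted. The other 3 pairs had 0 of 52 called in limma, with 13 (PMA against PA), 2 (OA against SA) and 6 (SA against PA) at an unadjusted p under 0.05. The shares of all genes at that level were 17.7%, 2.40% and 15.8%. The relatives Trib1, Trib2, Sesn1, Sesn3 and Chac2 had 0 of 5 called in each of the 10 comparisons (limma). The most at an unadjusted p under 0.05 were 3, in SA against control, where 8.53% of all genes were. Chac2 differed from control by -0.21 ± 0.10 in PA, -0.28 ± 0.10 in PMA, -0.23 ± 0.10 in SA and -0.19 ± 0.10 in OA. The medians of the 5 relatives were -0.02, 0.10, 0.11 and 0.12 in the same order. Sesn3 was higher than control in OA by 0.19 ± 0.05, and Trib2 in SA by 0.19 ± 0.08.

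**Figure D5:**
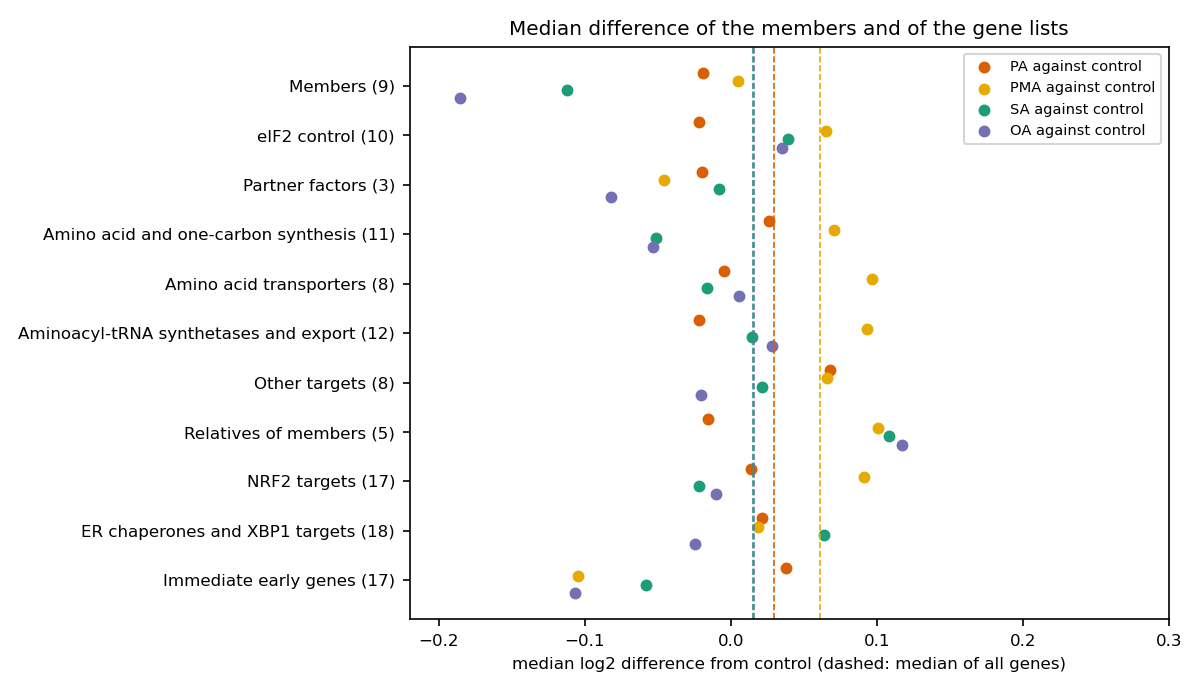
Median log2 difference from control (x axis) of the 9 measured genes and of 10 gene lists (y axis, number measured in brackets) for the 4 acids; dashed lines are the medians over all genes, colours as for the acids. The 9 genes, chosen with results of SA and OA known, lie at -0.11 in SA and -0.19 in OA. The lists of the wider pathway lie between -0.08 and 0.10.

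Slc7a11 is also known as a target of the antioxidant factor NRF2, and the response shares triggers with the unfolded protein response, so 3 other lists were set beside it. These lists too were written with earlier results of these data known, so their p-values are a description. The shares of all genes called were 0.266% in PMA, 0.165% in SA and 0.861% in OA against control. Between acids they were 0.962% in PMA against PA, 0.0531% in OA against PMA and 0.553% in monounsaturated against saturated acids. Of 17 NRF2 targets, 1 fell in OA against control: Srxn1, sulfiredoxin, at -0.28 ± 0.06 (adjusted p = 0.0410, limma), a call lost in 13 of 29 alternative fits, where it lay between -0.30 and -0.25. The export pump gene Abcc4 rose in PMA by 0.31 ± 0.06 (adjusted p = 0.0444, limma), a call lost in 17 of 29 alternative fits (0.23 to 0.31). It was also higher in PMA than in PA by 0.35 ± 0.06 (adjusted p = 0.00779, limma; lost in 3 of 29, at 0.27 to 0.35). Between OA and PMA it differed by -0.51 ± 0.07 (adjusted p = 0.000983, limma), lost without PMA replicates 1 and 4 and with only these groups fitted (-0.51 to -0.44).

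Of 18 endoplasmic reticulum chaperones and XBP1 targets, 1 fell in OA against control: Sdf2l1, at -0.39 ± 0.08 (adjusted p = 0.0193, limma; lost in 5 of 29 alternative fits, at -0.39 to -0.33). Another, the translocon subunit gene Sec61b, was lower in the monounsaturated than in the saturated acids, at -0.25 ± 0.05 (adjusted p = 0.0211, limma; lost in 8 of 29, at -0.25 to -0.20). In PA, PMA and SA against control 0 of 18 were called (limma), with 1, 3 and 1 at an unadjusted p under 0.05. In OA against SA, the pair in which Slc7a11 differed most, 0 of 17 NRF2 targets and 0 of 18 chaperones and XBP1 targets were called (limma). There 1 and 6 had an unadjusted p under 0.05, beside 2.40% of all genes. The medians were 0.01 and -0.07, beside 0.00 over all genes, and 7 of 17 and 16 of 18 differences were negative. How many of all genes were negative was not counted. These lists were not tested as sets.

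Of 17 immediate early genes, 3 fell in OA (Egr1, Junb and Ier2) and 1 in PMA and in SA (Egr1). The calls of Junb and Ier2 were lost in 11 and 15 of 29 alternative fits, at -0.31 to -0.26 and -0.50 to -0.36. Egr1 differed by -0.57 ± 0.07 in PMA, -0.60 ± 0.07 in SA and -0.74 ± 0.07 in OA, all larger in size than any difference from control of the 9 stress response genes. Ccn1, a matricellular protein gene of the same list, differed between PMA and PA by -0.49 ± 0.09 (adjusted p = 0.00670, limma), a call lost without PA replicates 2 and 4 (-0.50). It was also lower in the monounsaturated acids, at -0.37 ± 0.06 (adjusted p = 0.00497, limma). Egr1 and Junb were called lower in these same comparisons, in which 0.962% and 0.553% of all genes were called. Egr1 was also called lower in SA against PA, where 0.143% of all genes were called.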

How the data were processed

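Expression was measured on 19 Affymetrix Mouse Gene 1.1 ST arrays. For each of 35556 probe sets the deposited value is a log2 RMA expression level; the submitters' processing notes name RMA, affy 1.34.0 and R 2.15.0. The scan files were not used here. Probe sets were named from the platform annotation, which can be old: 21218 had 1 symbol and 1881 several. The brightest probe set stood for each of 18820 genes, with no filter on low values. Group means of the 5 groups were estimated jointly over the 19 arrays by limma 3.58.1 (lmFit, eBayes; R 4.3.3), and p-values were adjusted within each of 10 contrasts (Benjamini-Hochberg, two-sided, threshold 0.05). The fit was tested on simulated data. The members and lists were chosen with earlier results of these data known; 2 contrasts, of chain lengths and of all acids against control, were added after seeing the values and not tested. Named genes were all members, the called members of each list (with none called, up to 2 with the smallest p, of which few are printed), and the 5 genes most like Slc7a11 and Trib3 by Pearson r. A few pathway genes with background roles were named besides. Alternatives were dropping the dimmest genes, every probe set, averaged probe sets, cyclic loess, a trended robust spread, array weights, a replicate block, only the groups compared, PA replicates 2 and 4 or PMA replicates 1 and 4 left out, and each array left out. Promoters were RefSeq windows on GRCm38.p6.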

Additional observations from a re-analysis of the deposited data

Results flagged for a closer look

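Control replicate 1 of Chac1, at 9.63, lay apart from the other 3 control arrays: its gap to the nearest was 0.831 of the group's range, just over Dixon's critical value for 4 samples. It was the 1 such case in 36 groups of 4 arrays looked at, and chance gives about 1 in 20. Slc7a11 differed between acids of 18 carbons by -0.64 (OA against SA) and between monounsaturated and saturated acids by -0.39, and Trib3 differed between monounsaturated acids by -0.41 (OA against PMA). These 3 differences rest on the OA arrays, whose values were known when the members were chosen. In 3 cases among the pairs of acids that were not compared in the fit, every array of one acid lay above control's mean and every array of the other below it: Slc7a11 in SA against PMA (0.38), Trib3 in OA against PA (-0.35) and Trib3 in SA against PMA (-0.35). Those 3 differences were not tested.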

How the results depend on the processing

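Of 2646 alternative fits of a member in a comparison, 2523 kept the call and direction, 37 changed the call, 86 changed the sign of a difference not called in either fit, and 0 reversed a call. Among the 9 members, the count called in OA against control was 2, and it was 1 with the replicate block, 4 with array quality weights and 0 to 3 with 1 array left out. In OA against PMA it was 1, and it was 0 with the replicate block (Trib3 -0.39), with only the groups compared and without PMA replicates 1 and 4, 2 with array weights and 0 to 1 with 1 array left out. In SA against control it was 0, and 1 with cyclic loess (Ppp1r15a, -0.20). In SA against PA it was 0, and 1 (Trib3) with cyclic loess, with a trended robust spread and with array weights, and 0 to 2 with 1 array left out (2 without PA replicate 1). In OA against SA it was 1, and 0 to 1 with 1 array left out. For monounsaturated against saturated acids it was 1 throughout. The replicate numbers did not pair the arrays: over 36 same-number pairs the correlation of deviations ran from -0.43 to 0.40, with 6 above 0.1. Counts over all genes moved more. With 1 array left out they ran from 22 to 243 in OA (162), 8 to 129 in PMA (50), 4 to 59 in SA (31), 0 to 510 in PA (0), 49 to 638 in PMA against PA (181), 0 to 7 in OA against SA (6), 9 to 499 in SA against PA (27), 4 to 19 in OA against PMA (10) and 46 to 130 for the double bond (104). The cause of these changes was not tested.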
